A study of Mus musculus with 10 samples.

Results

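The genes described here are S1pr1, S1pr4, S1pr5, Cd69 and Ccr7, a set tied to whether T cells stay in tissues, leave them or enter lymph nodes. These 5 genes, of 54408 genes summed from the quantified transcripts, were taken by name, as the sphingosine-1-phosphate (S1P) receptors of lymphocytes, the receptor antagonist CD69 and the homing receptor CCR7. They and the gene lists below were chosen with earlier results of these data known, so the shares called among them are descriptive. RNA had been measured in P14 CD8 T cells, which carry a transgenic T cell receptor for the gp33 peptide, sorted from subcutaneous B16 melanomas that express gp33. In the 5 NFAT5 KO libraries the cells carried floxed Nfat5 alleles and 1 copy of Cre under the Cd4 promoter, which is active in developing T cells. In the 5 WT libraries the cells carried the same floxed alleles and no Cre, so that neither group had an unmodified Nfat5 locus. All cells were of C57BL/6 background, were activated in culture for 48 hours, were given to tumour-bearing mice at 5000000 T cells per mouse and were recovered 7 days later.

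S1P is abundant in blood and lymph and scarce inside tissues, and T cells use the receptor S1PR1 to follow this gradient out of a tissue. CD69 is a membrane protein induced by T cell receptor signals and interferons that binds S1PR1 and removes it from the cell surface, which holds cells in place. CCR7 answers to the chemokines CCL19 and CCL21, which lead T cells into lymph nodes and into the lymphatic vessels that leave tissues. Naive T cells are known for abundant S1PR1 and CCR7, while CD8 T cells that reside in tissues are known for CD69 and little S1pr1 RNA. The data are RNA levels in pools of sorted cells, so a smaller number of expressing cells and less RNA per cell cannot be told apart, and nothing was measured about protein at the cell surface.

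Library totals ran from 22444310 to 32001285 estimated counts, and 13081 genes passed the filter on low counts. All 10 libraries had CD8 T cell RNA: in CPM, which are read counts normalised to a fixed library total, the 8 markers for that lineage summed to 8065 to 8521 CPM in NFAT5 KO and 7380 to 8338 CPM in WT libraries. Of these 8 markers, Trac, Cd2 and Cd5 were called higher in NFAT5 KO cells, with log2 fold changes of 0.50, 0.46 and 0.29 (edgeR adjusted p = 0.00937, 0.0204 and 0.0468), and their part in the results below was not tested. Ranges of other markers are given beside the results they touch. Nfat5 itself had 11.6 to 26.8 CPM in NFAT5 KO and 9.20 to 18.3 CPM in WT libraries, with the highest value in NFAT5 KO library 679_2. Its gene total does not separate the floxed part from the rest, so it checks no genotype label. The labels start with 678 or 679, and what these prefixes mean is not stated. There were 3 NFAT5 KO and 2 WT libraries under 678, and 2 NFAT5 KO and 3 WT libraries under 679. Since the labels do not say whether each library came from its own mouse, p-values measure the spread between libraries, which may be technical.

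All 5 genes passed the filter, and 2 of them, S1pr1 and Cd69, were called higher in NFAT5 KO cells at an adjusted p below 0.05 (edgeR's quasi-likelihood test with Benjamini-Hochberg adjustment over all 13081 genes). None was called lower, and Ccr7, S1pr4 and S1pr5 did not pass. Across all genes tested the same rule called 9.01% in either direction, with 3.38% higher and 5.63% lower, and the median log2 fold change was 0.02. S1pr1 and Cd69 were also the 2 of the 5 for which every NFAT5 KO library lay above every WT library, which held for 3.92% of all genes tested, while the reverse held for none of the 5 and for 6.41% of all genes.

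The receptors are named by the stretch of coding sequence where S1pr1 and S1pr5 share their longest identical run, because genes of 1 family can exchange reads when transcripts are quantified. Each line gives 63 coding bases on the minus strand of GRCm38, from the GENCODE M21 transcripts. The capitals mark the 15 bases that S1pr1 and S1pr5 have in common and the same place in S1pr4, where 13 of the 15 bases are those of S1pr1. The S1pr1 bases are chr3:115712336-115712398, the S1pr5 bases chr9:21244548-21244610 and the S1pr4 bases chr10:81499019-81499081.
S1pr1: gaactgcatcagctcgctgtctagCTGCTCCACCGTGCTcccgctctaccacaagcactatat
S1pr5: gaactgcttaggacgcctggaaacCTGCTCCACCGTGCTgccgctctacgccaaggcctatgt
S1pr4: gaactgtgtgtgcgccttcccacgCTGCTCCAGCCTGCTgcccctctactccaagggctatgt

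Over their aligned coding bases, S1pr1 was 62.8% identical to S1pr5 and 58.6% identical to S1pr4, and S1pr4 was 63.5% identical to S1pr5. No identical coding run between these 3 receptors was longer than 15 bases, which is shorter than the 31-base words that were searched for sharing. Of the 31-base words of the whole transcript, 0.365% for S1pr1, 2.76% for S1pr4 and 1.21% for S1pr5 also occurred in a transcript of another gene. Ccr7 and the full-length Cd69 transcript shared no such word with another gene.

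S1pr1, the receptor that carries T cells out of tissues along S1P (ENSMUSG00000045092, GRCm38 chromosome 3, 115710433 to 115715072, minus strand), was higher in NFAT5 KO cells. Under prefix 678, NFAT5 KO library 678_3 had a normalised read count of 64.6 CPM, 678_5 had 146 CPM and 678_6 had 78.1 CPM, against 9.74 and 46.7 CPM in WT libraries 678_2 and 678_4. Under prefix 679, it was 76.9 and 56.6 CPM in NFAT5 KO libraries 679_2 and 679_6, against 29.1, 27.8 and 17.5 CPM in WT libraries 679_3, 679_4 and 679_5. All NFAT5 KO libraries lay above all WT libraries, with library 678_5 far above the other NFAT5 KO libraries and library 678_4 the highest of the WT libraries. The means were 84.5 ± 35.6 CPM in NFAT5 KO and 26.2 ± 13.9 CPM in WT cells (SD, n = 5 each). The log2 fold change was 1.69 (SE 0.37, 95% interval 0.89 to 2.49, edgeR adjusted p = 0.0129), or 3.23-fold. Without NFAT5 KO library 678_5 it was 1.38 (edgeR adjusted p = 0.0301), and it was called in each of the 10 fits that left out 1 library. Within prefix 678 alone the log2 fold change was 1.77, but it did not pass (edgeR adjusted p = 0.41), and within prefix 679 alone it was 1.42 (edgeR adjusted p = 0.0488).

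Cd69, the antagonist of S1PR1 and an early activation marker (ENSMUSG00000030156, chromosome 6, 129267325 to 129275436, minus strand), was also higher in NFAT5 KO cells. It had 272, 357, 568, 492 and 399 CPM in the NFAT5 KO libraries, in the order in which the libraries are named above. The WT libraries had 131, 232, 163, 128 and 180 CPM. The lowest NFAT5 KO library, 678_3, lay above the highest WT library, 678_4. The means were 418 ± 115 CPM in NFAT5 KO and 167 ± 42.6 CPM in WT cells (SD, n = 5 each). Cd69 had a log2 fold change of 1.33 (SE 0.21, 95% interval 0.88 to 1.77, edgeR adjusted p = 0.00184), or 2.51-fold. Leaving out any 1 library kept Cd69 called, with log2 fold changes of 1.17 to 1.45. Within prefix 678 alone it was 1.13 (edgeR adjusted p = 0.335), and within prefix 679 alone 1.50 (edgeR adjusted p = 0.0093).

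Ccr7, the lymph node homing receptor (ENSMUSG00000037944, chromosome 11, 99144196 to 99155077, minus strand), was the most abundant of the 5 and did not pass the test. It had 1434, 1329, 1055, 1808 and 1846 CPM in the NFAT5 KO libraries. The WT libraries had 929, 1138, 1243, 1211 and 1128 CPM. The groups overlapped through NFAT5 KO library 678_6, which lay below 4 of the 5 WT libraries, while the other 4 NFAT5 KO libraries lay above all WT libraries. The means were 1494 ± 334 CPM in NFAT5 KO and 1130 ± 122 CPM in WT cells (SD, n = 5 each). The log2 fold change was 0.40 (SE 0.14, 95% interval 0.10 to 0.71), with an unadjusted p of 0.0143 and an edgeR adjusted p of 0.102. Whether Ccr7 passed depended on the fit. It passed with the label prefix as a covariate (log2 fold change 0.46, edgeR adjusted p = 0.0217), within prefix 679 alone (0.61, edgeR adjusted p = 0.029), with DESeq2's Wald test (0.40, adjusted p = 0.0496) and without NFAT5 KO library 678_6 (0.49, edgeR adjusted p = 0.0365). Within prefix 678 alone it was 0.30 (edgeR adjusted p = 0.616).

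S1pr4, a receptor found mainly on lymphocytes and other blood cells (ENSMUSG00000044199, chromosome 10, 81497747 to 81500132, minus strand), varied least among the 5 genes in WT cells and in NFAT5 KO cells. It had 29.1, 38.2, 24.5, 28.6 and 29.5 CPM in the NFAT5 KO libraries and 28.8, 26.6, 26.4, 24.0 and 30.0 CPM in the WT libraries. The ranges overlapped, with only NFAT5 KO library 678_5 above all WT libraries. Its log2 fold change was 0.14 (SE 0.14, edgeR adjusted p = 0.587), and the 95% interval ran from -0.16 to 0.44, which does not reach the fold changes fitted for S1pr1 and Cd69.

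S1pr5, a receptor known for the exit of NK cells from bone marrow and lymph nodes and for its expression in circulating effector CD8 T cells (ENSMUSG00000045087, chromosome 9, 21242912 to 21248443, minus strand), was scarce. It had 1.79, 9.27, 3.99, 3.12 and 2.20 CPM in the NFAT5 KO libraries, which rested on 44 to 253 estimated counts. The WT libraries had 1.24, 1.43, 0.159, 0.708 and 4.29 CPM, from 5 to 98 estimated counts. WT library 679_5 lay above all NFAT5 KO libraries but 678_5, so the groups overlapped. The log2 fold change of 1.39 (SE 0.71, edgeR adjusted p = 0.27) had a 95% interval from -0.16 to 2.93. It was 0.82 without NFAT5 KO library 678_5 and 2.18 without WT library 679_5 (edgeR adjusted p = 0.556 and 0.0871), so at this depth a change of S1pr5 could not be told from its spread. The coefficient of variation was 74.3% in NFAT5 KO and 102% in WT libraries, against 16.7% in NFAT5 KO and 8.54% in WT libraries for S1pr4.

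**Figure D1:**
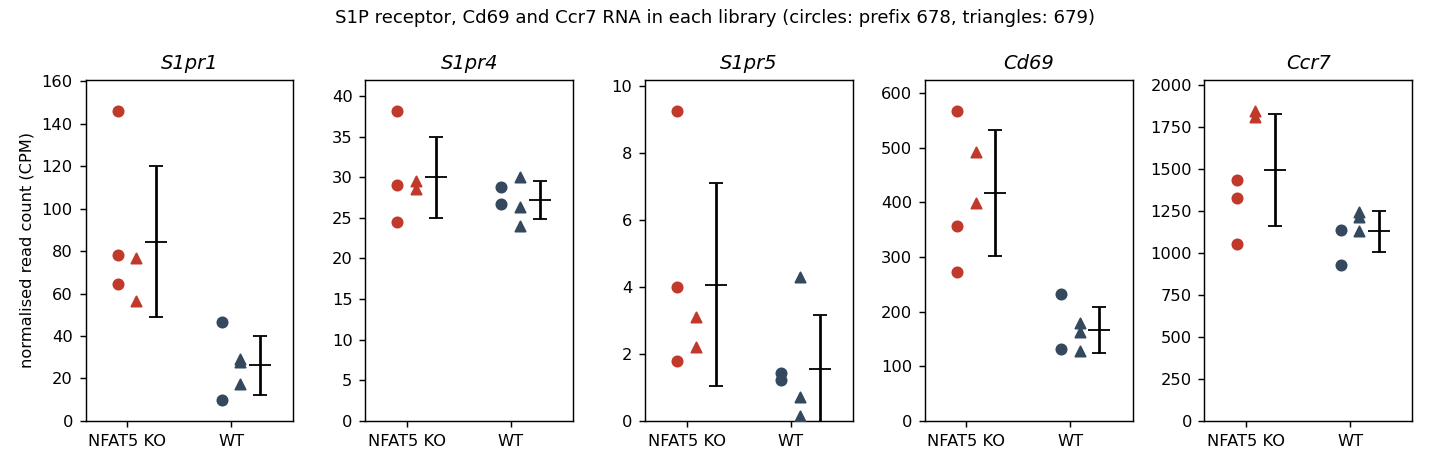
Normalised read counts (CPM, vertical axes from 0) of the 5 genes in each NFAT5 KO (red) and WT (blue) library, with circles for label prefix 678, triangles for 679 and bars for mean ± SD (n = 5 each; the lower bar of S1pr5 in WT cells is cut at 0). For S1pr1 and Cd69 the lowest NFAT5 KO libraries, at 56.6 and 272 CPM, lie above the highest WT libraries, at 46.7 and 232 CPM, and for the other 3 genes the groups overlap.

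The genotype effect was also compared between the label prefixes. The test of the interaction of genotype and prefix called 0 of 13081 genes (edgeR's quasi-likelihood test), with 377 at an unadjusted p under 0.05. For S1pr1 the effect under 679 minus that under 678 was -0.35 on the log2 scale (SE 0.78), for Cd69 0.37 (SE 0.44) and for Ccr7 0.31 (SE 0.20), with an edgeR adjusted p of 1 for each. These errors leave room for sizeable differences between the prefixes.

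Levels of different genes were compared per transcript length, in the deposited TPM, which are scaled by transcript length and to a fixed total per library. In all 5 NFAT5 KO libraries the order was Ccr7, Cd69, S1pr1, S1pr4 and S1pr5. Ccr7 had 664 to 1189 TPM in NFAT5 KO and 577 to 821 TPM in WT libraries, above Cd69 at 237 to 448 TPM in NFAT5 KO and 103 to 202 TPM in WT libraries. Ccr7 and Cd69 were abundant RNAs in both genotypes: Ccr7 lay at the 98.1st to 99.0th percentile of the tested genes in NFAT5 KO and at the 97.7th to 98.5th in WT libraries. Cd69 lay at the 94.7th to 97.2nd percentile in NFAT5 KO and at the 87.7th to 93.4th in WT libraries. S1pr5 was last in every library, at 0.914 to 5.62 TPM in NFAT5 KO and 0.0937 to 2.29 TPM in WT cells.

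The order of S1pr1 and S1pr4 differed between the genotypes. S1pr1 had 23.2, 58.5, 28.4, 29.7 and 20.3 TPM in the NFAT5 KO libraries and 3.55, 17.5, 11.4, 9.71 and 6.63 TPM in the WT libraries. S1pr4 had 13.5, 21.7, 12.9, 15.6 and 15.0 TPM in the NFAT5 KO libraries and 14.9, 14.3, 14.5, 11.9 and 14.7 TPM in the WT libraries. S1pr1 was therefore above S1pr4 in 5 of 5 NFAT5 KO libraries and in 1 of 5 WT libraries, 678_4. Over the libraries of 1 genotype the ranges of these neighbours overlapped, in NFAT5 KO cells by the lowest S1pr1 and the highest S1pr4 value and in WT cells because the S1pr1 range took in every S1pr4 value.

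The S1P receptor genes together gave 61.1 ± 21.1 TPM in NFAT5 KO cells and 30.6 ± 5.48 TPM in WT cells (SD, n = 5 each), with ranges of 45.6 to 97.7 and 25.5 to 39.9 TPM. S1pr1 made up 50.9 ± 5.73% of this sum in NFAT5 KO cells and 30.5 ± 12.1% in WT cells. S1pr4 made up 26.7 ± 4.44% in NFAT5 KO cells and 46.9 ± 8.56% in WT cells. The shares of S1pr2 were 18.9 ± 4.61% in NFAT5 KO and 19.7 ± 4.02% in WT cells, and S1pr3 was at 0 in every library, where a count of 0 allows up to 0.134 CPM, a limit that covers counting error only. S1pr1 was thus the leading S1P receptor RNA in each NFAT5 KO library, and S1pr4 in 4 of the 5 WT libraries.

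**Figure D2:**
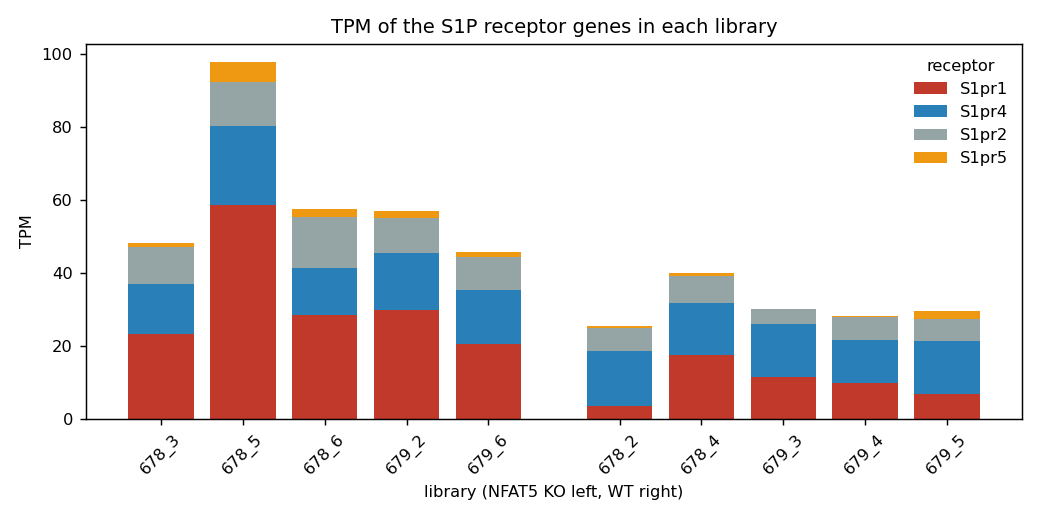
Stacked TPM of the S1P receptor genes (vertical axis) in each of the 5 NFAT5 KO libraries on the left and the 5 WT libraries on the right. The S1pr1 part, at the base of each bar, spans 20.3 to 58.5 TPM in NFAT5 KO and 3.55 to 17.5 TPM in WT libraries, while the S1pr4 part spans 12.9 to 21.7 TPM in NFAT5 KO and 11.9 to 14.9 TPM in WT libraries.

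Cd69 and S1pr1, whose proteins work against each other at the cell surface, were both higher in NFAT5 KO cells. The ratio of Cd69 to S1pr1 TPM was 12.2 ± 4.44 in NFAT5 KO cells and 17.8 ± 8.88 in WT cells (SD, n = 5 each), with overlapping ranges of 5.29 to 15.8 and 10.6 to 29.9. The lowest ratio belonged to NFAT5 KO library 678_5, which had the most S1pr1, and the highest to WT library 678_2, which had the least S1pr1.

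**Figure D3:**
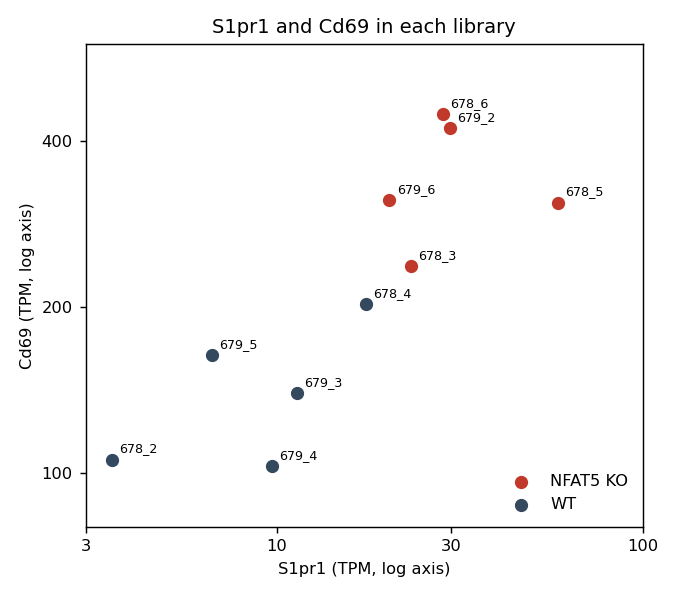
S1pr1 TPM (horizontal, log axis) against Cd69 TPM (vertical, log axis) in each library, NFAT5 KO in red and WT in blue, with library names. The NFAT5 KO libraries lie at 20.3 TPM of S1pr1 and 237 TPM of Cd69 or more, and the WT libraries at 17.5 TPM of S1pr1 and 202 TPM of Cd69 or less.

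Cd69 has 5 transcripts in GENCODE M21, and the short coding one, Cd69-203, joins exon 1 to exon 3. It leaves out exon 2, which encodes the stretch that spans the membrane, so exon 2 and both junctions are printed to show what separates the coding forms. Exon 2 is 123 bases long, or 41 codons, at chr6:129271335-129271457 (GRCm38, minus strand, from the GENCODE M21 transcripts). The junction lines give the last 20 bases of exon 1 in lower case and the first 20 bases of the exon that follows in capitals, and the same capitals open exon 2.
Cd69 exon 2: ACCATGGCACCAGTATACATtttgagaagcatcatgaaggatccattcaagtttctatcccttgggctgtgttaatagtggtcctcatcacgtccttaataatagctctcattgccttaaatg
Cd69-201 junction: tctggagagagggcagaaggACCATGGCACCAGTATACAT
Cd69-203 junction: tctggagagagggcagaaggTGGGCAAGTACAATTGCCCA

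The full-length transcript Cd69-201 took 84.8 ± 3.02% of the estimated counts of Cd69 in NFAT5 KO cells and 84.7 ± 2.02% in WT cells (SD, n = 5 each). The transcript without exon 2 took 7.02 ± 0.704% in NFAT5 KO cells and 8.27 ± 0.912% in WT cells, a difference of -1.25 percentage points (two-sided exact permutation test, p = 0.0556, adjusted p = 0.111 over 4 shares). The 3 transcripts with retained introns took 8.15 ± 2.50% in NFAT5 KO cells and 7.06 ± 1.79% in WT cells (two-sided exact permutation test, p = 0.437, adjusted p = 0.582). Per length, the transcript without exon 2 made up 27.1 ± 1.92% of the TPM of the coding forms in NFAT5 KO cells and 30.4 ± 2.46% in WT cells (two-sided exact permutation test, p = 0.0556, adjusted p = 0.111). No share passed its test, and full-length Cd69 led in every library of both genotypes. These shares rest on how the quantification divided reads among overlapping transcripts, since no junction reads were counted separately. Cd69-203 is annotated with hardly any 3′ untranslated sequence, which makes its share per length larger than its share of counts.

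**Figure D4:**
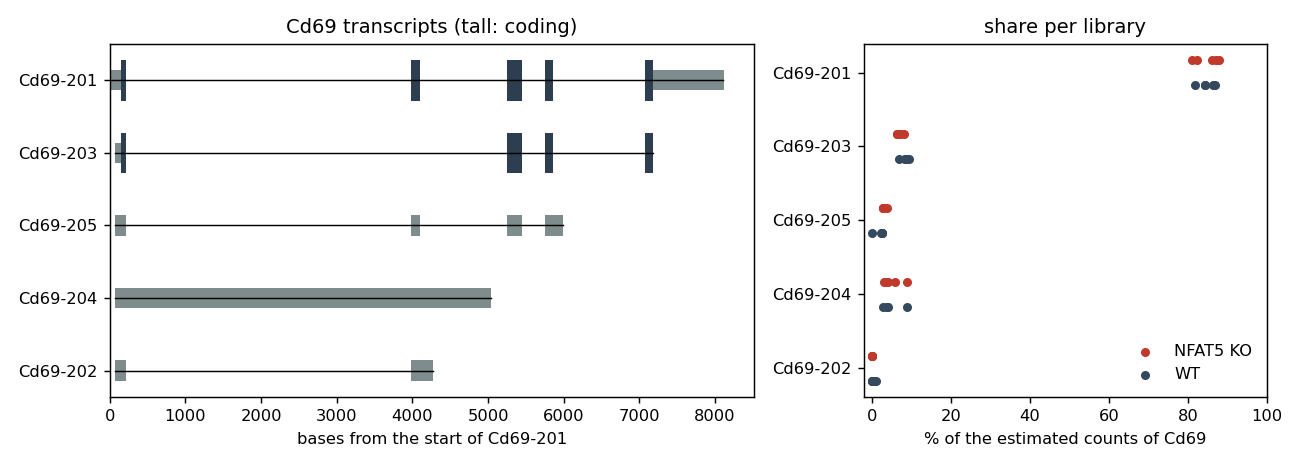
Left, the exons of the 5 Cd69 transcripts (horizontal axis in bases from the start of Cd69-201, tall blocks coding); right, the share of the estimated counts of Cd69 that each transcript took in each NFAT5 KO (red) and WT (blue) library. Cd69-201 leads in every library, at 84.8 ± 3.02% in NFAT5 KO and 84.7 ± 2.02% in WT cells.

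Of the S1P receptors outside the 5 genes, S1pr2, a receptor known to hold cells back from S1P, had 24.2, 41.9, 26.8, 26.4 and 29.3 CPM in the NFAT5 KO libraries and 26.7, 17.9, 10.8, 18.4 and 17.2 CPM in the WT libraries. In CPM, only WT library 678_2 reached into the NFAT5 KO range, while in TPM the ranges were apart, at 9.04 to 13.9 TPM in NFAT5 KO and 4.21 to 7.29 TPM in WT libraries. That separation came with the scaling by length. WT library 678_2 had 26.7 CPM and 6.31 TPM, against 24.2 CPM and 10.35 TPM in NFAT5 KO library 678_3. The log2 fold change of 0.71 (SE 0.23, 95% interval 0.22 to 1.20) did not pass in edgeR's test (adjusted p = 0.0736, against 0.0396 without WT library 678_2). DESeq2's Wald test called it and limma-voom did not.

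The enzymes and carriers that make, break down and export S1P were described with 12 genes, of which 7 passed the filter on low counts. None of the 7 passed edgeR's test, 1 had an unadjusted p under 0.05, and neither DESeq2 nor limma-voom called any. Their median log2 fold change was 0.30, beside 0.02 over all genes tested. The smallest p belonged to Plpp1, a lipid phosphatase that acts on S1P outside cells, at 0 to 0.356 CPM in NFAT5 KO and 0.541 to 0.886 CPM in WT libraries (edgeR adjusted p = 0.127). Both S1P exporters on the list, Spns2 and Mfsd2b, were under the filter, as were the CCR7 ligands Ccl19 and Ccl21a and their scavenger receptor Ackr4.

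Of 12 other genes for lymph node entry and adhesion, 11 were tested, 4 were higher in NFAT5 KO cells, 1 was lower and 6 did not pass. Of all genes tested, 3.38% were called higher and 5.63% lower. The list's median log2 fold change was 0.21, beside 0.02 over all genes. Gpr183, which guides lymphocytes toward oxysterols in lymphoid tissue, averaged 58.9 ± 4.79 CPM in NFAT5 KO and 39.0 ± 4.27 CPM in WT cells (log2 fold change 0.59, SE 0.11, edgeR adjusted p = 0.00519). Cxcr4, the receptor of the bone marrow and stromal chemokine CXCL12, averaged 20.4 ± 4.62 CPM in NFAT5 KO and 9.64 ± 2.97 CPM in WT cells (log2 fold change 1.09, SE 0.23, edgeR adjusted p = 0.0120). The integrin chains Itgb7 and Itgb1 had log2 fold changes of 0.33 and 0.40 (edgeR adjusted p = 0.0220 and 0.0277), with Itgb1 named after its values were seen, but each was called in only 3 of the 10 fits that left out 1 library. The gene that fell was Fut7, the fucosyltransferase that builds selectin ligands, with 4.40 ± 2.06 CPM in NFAT5 KO and 14.4 ± 1.82 CPM in WT cells (log2 fold change -1.71, SE 0.32, edgeR adjusted p = 0.00556). The list therefore did not move in 1 direction. Its count of called genes was 3 without NFAT5 KO library 678_6 or without WT library 678_2, 679_3 or 679_5.

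Genes known for holding T cells in tissues were also measured. All 10 were tested, 3 were higher in NFAT5 KO cells and 7 did not pass, where 3.38% of all genes tested were called higher. The median log2 fold change was 0.39, beside 0.02 over all genes, and 8 of the 10 were positive. The largest values, 1.74 for P2rx7 and 0.88 for Itgae, did not pass (edgeR adjusted p = 0.252 and 0.683). Both genes were scarce, averaging 3.18 and 1.61 CPM in NFAT5 KO and 0.948 and 0.874 CPM in WT cells. Xcl1 and the scarce Ahr had negative log2 fold changes of -0.36 and -0.17 (edgeR adjusted p = 0.195 and 0.933). Rgs1, which shuts off chemoattractant receptor signals and is known from tissue-resident T cells, averaged 176 ± 49.5 CPM in NFAT5 KO and 101 ± 14.9 CPM in WT cells (log2 fold change 0.80, SE 0.17, edgeR adjusted p = 0.0124). The chemokine receptors of inflamed tissue Cxcr3 and Cxcr6 had log2 fold changes of 0.37 and 0.80 (edgeR adjusted p = 0.0149 and 0.0243). Of these 3, Rgs1 was called in each fit that left out 1 library, Cxcr3 in 7 of 10 and Cxcr6 in 3 of 10. The list kept 1 call without NFAT5 KO library 678_6 or without WT library 678_2 or 679_5.

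Of 14 transcription factors known to act on egress genes, 2 were higher in NFAT5 KO cells and 12 did not pass, where 3.38% of all genes tested were called higher. Their median log2 fold change was 0.24, beside 0.02 over all genes. Klf3, a repressor of the Krüppel-like family, averaged 56.8 ± 17.9 CPM in NFAT5 KO and 16.2 ± 7.48 CPM in WT cells (log2 fold change 1.81, SE 0.32, edgeR adjusted p = 0.00372). Tbx21, which encodes T-bet and is known to drive S1pr5, averaged 256 ± 33.0 CPM in NFAT5 KO and 174 ± 21.0 CPM in WT cells (log2 fold change 0.56, SE 0.11, edgeR adjusted p = 0.00735). Klf2, the best known activator of S1pr1, and Foxo1, which acts upstream of Klf2 and Ccr7, were singled out after their values were seen. Klf2 averaged 95.5 ± 15.8 CPM in NFAT5 KO and 67.5 ± 12.96 CPM in WT cells, with a log2 fold change of 0.50 (SE 0.15, edgeR adjusted p = 0.0570). Foxo1 averaged 215 ± 27.2 CPM in NFAT5 KO and 167 ± 19.4 CPM in WT cells, with a log2 fold change of 0.37 (SE 0.11, edgeR adjusted p = 0.0533). Klf3 and Tbx21 were called in each fit that left out 1 library, and Klf2 and Foxo1 in 2 of 10 each.

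The 17 genes for G proteins, receptor kinases, arrestins and the migration machinery that work below these receptors had a median log2 fold change of 0.03, close to the 0.02 of all genes. None passed edgeR's test, 3 had an unadjusted p under 0.05, and DESeq2 and limma-voom each called 3. Msn, the cytoskeletal linker moesin, had the smallest p, with a log2 fold change of 0.30 (SE 0.09, edgeR adjusted p = 0.0556).

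Because CD69 is also an activation marker, 11 genes induced by T cell receptor signals were set beside it. Of these, 4 were higher in NFAT5 KO cells and 7 did not pass, where 3.38% of all genes tested were called higher. Their median log2 fold change was 0.59, beside 0.02 over all genes. Of the 11 genes, 9 had a positive log2 fold change, so the list did not move as a whole. Among those that did not pass, Cd38 and Tnfrsf4 had log2 fold changes of -0.54 and -0.47 (edgeR adjusted p = 0.113 and 0.142). Cd44 and Il2ra hardly differed, at 0.03 and 0.13 (edgeR adjusted p = 0.892 and 0.626), and Icos, Fos and Jun had 0.49, 0.59 and 0.77. Egr1, an immediate early transcription factor, averaged 335 ± 63.3 CPM in NFAT5 KO and 210 ± 36.9 CPM in WT cells (log2 fold change 0.68, SE 0.14, edgeR adjusted p = 0.0108). Nr4a1 and Egr2, transcription factors induced by T cell receptor signals, had log2 fold changes of 0.82 and 0.90 (edgeR adjusted p = 0.0201 and 0.0220). Tnfrsf9, the costimulatory receptor 4-1BB, had a log2 fold change of 0.68 (edgeR adjusted p = 0.0266). The ranges of the genotypes overlapped for each of these 4 genes, unlike those for Cd69. Egr1 was called in each fit that left out 1 library, Nr4a1 in 7 of 10, Egr2 in 6 of 10 and Tnfrsf9 in 4 of 10. The list had 1 or 2 calls without WT library 678_2 or 679_3 or without NFAT5 KO library 678_6 or 679_2.

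**Figure D5:**
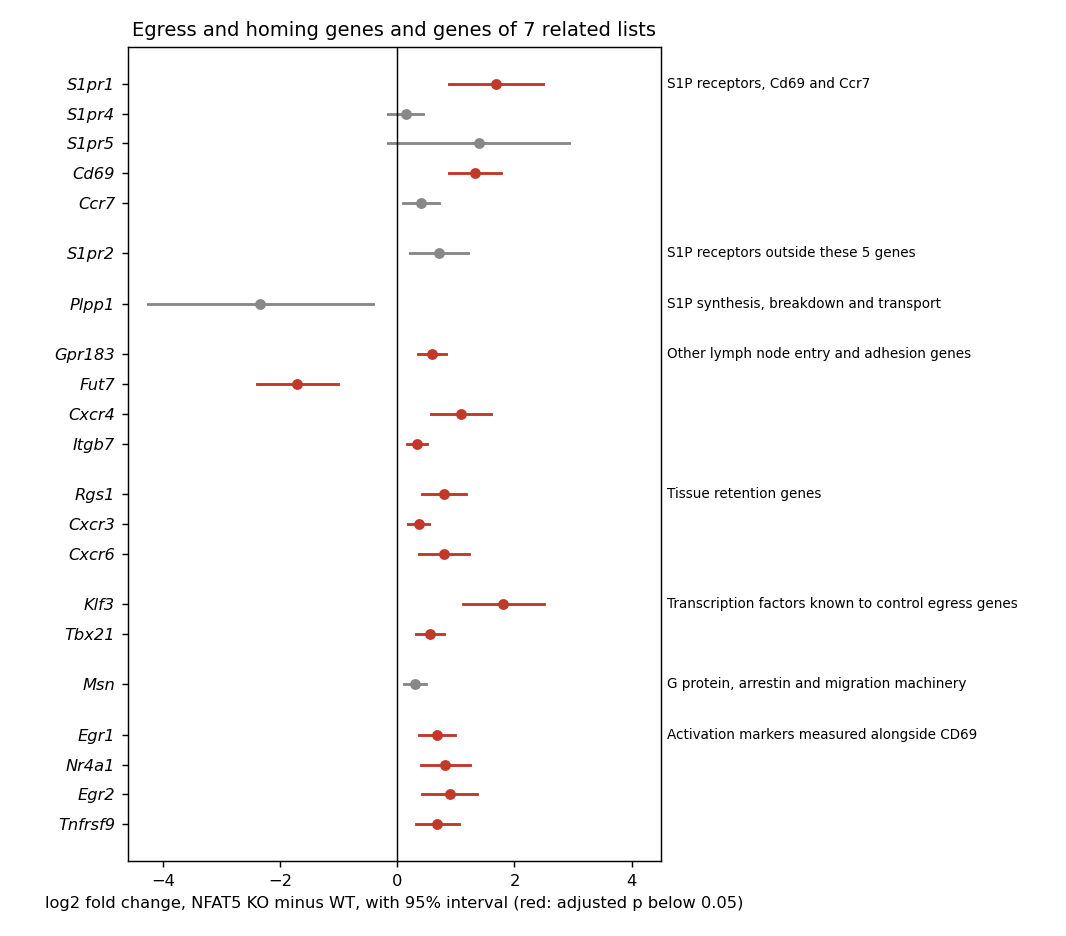
Log2 fold change of NFAT5 KO over WT (horizontal axis, edgeR fit) with its 95% interval, in red where the adjusted p was below 0.05. Shown are the 5 genes and, from 7 related lists, the genes named by smallest p. S1pr1 at 1.69 and Cd69 at 1.33 lie to the right of 0 with their whole intervals, Fut7 at -1.71 lies to the left, and the intervals of S1pr4 and S1pr5 cross 0.

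Several of these genes are also made by other cells that a tumour holds. The 12 markers of macrophages and monocytes summed to 37.6 to 81.9 CPM in NFAT5 KO and 72.0 to 153 CPM in WT libraries, with none at 0 in all libraries and 1, Adgre1, called lower. The 7 NK cell markers summed to 127 to 368 CPM in NFAT5 KO and 59.1 to 163 CPM in WT libraries, with Gzma called higher and Fcer1g lower. They include Eomes, which is also among the 14 transcription factors above, at 41.0 ± 11.7 CPM in NFAT5 KO and 30.8 ± 14.0 CPM in WT cells. How much of this sum came from the CD8 T cells themselves was not tested. The defining NK receptor Ncr1 was at 0 in every library, and Klra8 and Klra4 were under 1 CPM throughout. The 10 dendritic cell markers summed to 122 to 193 CPM in NFAT5 KO and 50.1 to 149 CPM in WT libraries, and most of each sum was Itgax, at 140 ± 28.2 CPM in NFAT5 KO and 96.0 ± 34.3 CPM in WT cells (SD, n = 5 each, edgeR adjusted p = 0.193). Of the other dendritic cell markers, Siglech was at 0 in every library and Flt3, Clec9a and Ccl17 were under 1 CPM throughout. The rest, Zbtb46, Xcr1, Cd209a, Fscn1 and Ccl22, each reached 1 CPM in some library. Of the 10 dendritic cell markers, 3 passed the filter on low counts and none was called. Endothelial and fibroblast markers, 6 in all, summed to 35.3 to 50.4 CPM in NFAT5 KO and 39.7 to 69.4 CPM in WT libraries. Cdh5 and Kdr were at 0 in every library and Col3a1 and Pdgfrb under 1 CPM throughout, which leaves Pecam1 and Col1a1 for most of each sum. Only 1 of the 6 markers passed the filter on low counts, so the sum does not stand for both cell types. The part of these cells in the values of S1pr1, S1pr5, Cd69 and Ccr7 was not tested. B cell, neutrophil and melanoma markers summed to at most 14.4 CPM in any library, and those of CD4 and regulatory T cells to at most 7.73 CPM.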

How the data were processed

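RNA of sorted tumour CD8 T cells was measured in 5 NFAT5 KO and 5 WT libraries. Per the submitters' processing notes, the authors quantified transcripts with Salmon 0.14.1 and named the builds GRCm38.p6 and mm10. Per the file headers, the deposited values are estimated counts, which need not be whole, and TPM per transcript. For the annotation release and the strand setting, the authors' choices were not given in the sources used here. Transcripts were matched by identifier to GENCODE M21, which left 0.191 to 0.228% of each library's counts unmatched, and the sum of each gene's estimated counts was rounded. Genes were filtered with filterByExpr, normalised with TMM and tested with edgeR 4.0.16 (glmQLFit, robust, in R 4.3.3) over all 10 libraries with no covariate, and p-values were adjusted by Benjamini-Hochberg at 0.05. CPM are TMM-normalised, and standard errors and 95% intervals come from the quasi-likelihood fit. Counts carry no molecular identifiers, and depth was 22444310 to 32001285 per library. No 2 libraries matched within sampling noise, with a chi-square per degree of freedom of at least 27.4 for every pair.

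Alternatives used DESeq2 1.42.0 and limma 3.58.1, other scalings and filters, a length offset, the label prefix and fits without each library. Shares of Cd69 transcripts were compared by two-sided exact permutation tests over 252 arrangements. The edgeR script was tested on simulated data. It recovered 50 of 86 genes with a true log2 fold change of 1 in either direction, and 82 of 103 with 2. It also called 6 unchanged genes. A true change of that smaller size can therefore fail to pass. The 5 genes and the gene lists were chosen with earlier results of these data known. From each list up to 4 called genes with the smallest p were named, or the 1 gene with the smallest p where none was called. Other genes of the lists were named after their values were seen.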

Additional observations from a re-analysis of the deposited data

Results flagged for a closer look

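In NFAT5 KO library 678_5, S1pr1 stood at 146 CPM, against 56.6 to 78.1 CPM in the other 4 NFAT5 KO libraries, a gap large enough to mark that library as far from the rest of its group by Dixon's criterion. In the same library S1pr2 stood at 41.9 CPM, against 24.2 to 29.3 CPM in the other NFAT5 KO libraries, only just past the same criterion. Groups screened this way numbered 24, and chance flags about 1 in 20 groups. Library 678_5 also had the highest S1pr4 and S1pr5 of all 10 libraries, at 38.2 and 9.27 CPM, while its Cd69 (357 CPM) and Ccr7 (1329 CPM) lay inside the NFAT5 KO range.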

How the results depend on the processing

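Over all genes, 1179 were called. DESeq2's Wald test called 1893, prefix 679 alone 325 and prefix 678 alone 0 with edgeR, where 1449 genes had an unadjusted p under 0.05. These prefix fits used 5 libraries each. Leaving out 1 library gave 696 (without WT library 678_2) to 1276 calls. S1pr1 was positive and called under 10 of 11 other settings, Cd69 under 9 of 11, and both in all 10 fits without 1 library. With prefix 678 alone the log2 fold changes were 1.77 for S1pr1 and 1.13 for Cd69 (edgeR adjusted p = 0.41 and 0.335). Ccr7 became called with DESeq2's Wald test (0.40), the prefix covariate (0.46) and prefix 679 alone (0.61), and ranged from 0.295 to 0.488 without 1 library, called only without NFAT5 KO library 678_6; the cause was not tested. S1pr4 and S1pr5 were positive and not called under any setting run, and S1pr5 gave no value with a filter of 5 CPM in 5 libraries. DESeq2 and limma-voom counts for the gene lists were added after seeing the data: DESeq2 called 7 activation markers against 4 and 4 transcription factors against 2. Limma-voom called 5 activation markers, 4 higher and 1 lower, and 3 transcription factors, all higher. The title numbers 2, 3 and 5 occur in both genotypes, under different prefixes, and the labels do not say whether they pair the libraries. Between libraries of the same number, deviations from the genotype means correlated at -0.0142, -0.00403 and -0.00306. Each of these NFAT5 KO libraries correlated better with another WT library, but at 0.0774 at most. Correlations this weak cannot decide whether the numbers pair the libraries. With the number as a replicate block, added after seeing the data, 128 genes were called. Cd69 was not called (log2 fold change 1.21, edgeR adjusted p = 0.0998) and S1pr1 was (2.41, edgeR adjusted p = 0.0453). The other title numbers occur in only 1 genotype, so the genotype contrast of this fit rests on the libraries numbered 2, 3 and 5. Depth limits S1pr5 most, with 5 estimated counts in its lowest library.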

Other observations

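For each of the 5 genes, the genes with the most similar pattern were sought among 8488 expressed genes, as Pearson's r of log2 CPM over the 10 libraries after each gene's genotype mean was subtracted. These values describe 10 libraries that share depth and handling within each library, and with so many genes searched high values arise readily. S1pr1 was closest to Arid5b (0.947), AC161438.1 (0.928) and Pi4k2a (0.926). Cd69 was closest to Spata5l1 (0.955), Plekhm1 (0.948) and M6pr (0.933), and Ccr7 to Coil (0.905), Spint2 (0.893) and Nfkbia (0.891). S1pr4 was closest to Srgap3 (0.954), Nipbl (0.950) and Numb (0.926), and S1pr5 to Zfyve27 (0.936), Rnf121 (0.914) and Pgrmc2 (0.907). None of the 5 genes was among the 3 closest genes of another.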
